A study of Mus musculus with 21 samples.

Results

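Glucose is broken down to pyruvate and lactate by the enzymes of glycolysis, and 35 genes of that pathway and of the response to low oxygen were followed here in mouse pancreatic tumour cells. They were 16 glycolytic enzymes, 6 genes of glucose and lactate transport and of glycolytic control, 12 other hypoxia-inducible genes and Hif1a. The genes were taken by symbol, with no measured value in the rule, and all 35 were among the 24623 symbols of the table. Earlier results of these data were known when the genes were chosen. In oxygenated cells the prolyl hydroxylases encoded by Egln1 and Egln3 mark the HIF-1 alpha protein for destruction. When oxygen falls the protein persists, pairs with its partner and switches on genes that hold a short recognition sequence, among them glucose transporters, most glycolytic enzymes, Vegfa, Adm and the hydroxylases themselves. Pancreatic tumours are known for poor perfusion and for high expression of these genes.

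The study compared tumour cells with and without the receptor tyrosine kinase EPHA2 in 2 clones, 6694c2 and 6419c5. Cells had been placed under the skin of C57BL/6 mice without further treatment, and RNA came from tumour cells sorted out of the tumours 3 weeks later. Each clone gave a parental line, called WT, and a pair of lines labelled EPHA2-KO, called KOA and KOB, so that 6 lines were measured in 21 libraries, with 4 libraries per line in 6694c2 and 3 in 6419c5. Neither the editing of EPHA2, nor the sort markers, nor a separate animal for each library is given by the labels, so p-values measure the spread between these libraries, which may be technical. Because a clone has 1 parental and 2 knockout lines, an effect of EPHA2 and other differences between lines cannot be told apart. The measurement is TPM, an abundance scaled for transcript length that adds to 1000000 in each library, and the number of reads behind a value is unknown.

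Epha2 itself was at 244, 240, 243 and 252 TPM in 6694c2 WT, and between 88.0 and 130 TPM in the 8 libraries of the KO lines of that clone. In 6419c5 it was at 164, 175 and 190 TPM in WT, between 144 and 156 in KOA and between 170 and 221 in KOB. There KOA lay below all WT libraries and KOB overlapped them, and neither passed the test against WT (log2 fold change -0.22 ± 0.12, limma adjusted p = 0.173, and 0.16 ± 0.12, limma adjusted p = 0.312). The small RNA gene Mir6236 took 145023 TPM in 6694c2 KOB library 4 and 91142 TPM in 6419c5 WT library 3, and all other libraries had 22665 to 54492 TPM of it. Summed over 8 markers, epithelial tumour cell transcripts reached 6471 to 8938 TPM in 6694c2, 5754 to 7648 TPM in 6419c5 WT and 12349 to 16403 TPM in the 6419c5 lines labelled KO. Macrophage markers, 12 in all, summed to between 206.8 and 4362 TPM, and markers of lymphocytes summed to at most 21.3 TPM per library.

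HIF binds the core ACGTG or GCGTG, which reads CACGT or CACGC on the other strand. The 250 bases before the start were available for 33 of the 35 genes in the RefSeq table of build GRCm38.p6, and 29 of these 33 genes (87.9%) held at least 1 such core in at least 1 of their windows. The share was 59.2% among the 10796 tested genes with a window and 41.5% among all 27025 genes of the table. With ACGTG alone it was 19 of 33 genes (57.6%), 24.2% of the tested genes and 18.5% of all genes. Counted by window, with overlap of the cores allowed, 75.5% of the 49 windows of the members, 53.7% of the windows of tested genes and 38.6% of all 32851 windows held a core. The 5 windows below are shown because their genes carry the contrasts described next: Pgk1, Ldha and Adm were lower in 6694c2 KOB, Car9 was higher there, and Egln3 was higher in the 6419c5 lines labelled KO. Capitals mark the cores on either strand, and each line runs 5′ to 3′ on the strand of the gene.
Pgk1 (chrX:106186850-106187099, plus strand): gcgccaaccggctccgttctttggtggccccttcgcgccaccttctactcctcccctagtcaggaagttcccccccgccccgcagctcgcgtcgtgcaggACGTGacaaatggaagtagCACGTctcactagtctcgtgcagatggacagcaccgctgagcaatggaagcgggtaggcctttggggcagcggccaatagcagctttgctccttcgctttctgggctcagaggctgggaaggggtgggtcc
Ldha (chr7:46845554-46845803, plus strand): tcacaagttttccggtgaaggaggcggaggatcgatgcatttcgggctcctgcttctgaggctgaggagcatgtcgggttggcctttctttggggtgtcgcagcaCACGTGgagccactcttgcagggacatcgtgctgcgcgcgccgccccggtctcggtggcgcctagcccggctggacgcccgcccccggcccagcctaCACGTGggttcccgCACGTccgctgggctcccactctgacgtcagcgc
Adm (chr7:110627407-110627656, plus strand): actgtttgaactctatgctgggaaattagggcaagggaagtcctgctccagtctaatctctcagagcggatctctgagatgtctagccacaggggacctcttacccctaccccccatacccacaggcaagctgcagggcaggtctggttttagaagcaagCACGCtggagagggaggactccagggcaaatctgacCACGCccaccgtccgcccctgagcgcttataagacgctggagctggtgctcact
Car9 (chr4:43506776-43507025, plus strand): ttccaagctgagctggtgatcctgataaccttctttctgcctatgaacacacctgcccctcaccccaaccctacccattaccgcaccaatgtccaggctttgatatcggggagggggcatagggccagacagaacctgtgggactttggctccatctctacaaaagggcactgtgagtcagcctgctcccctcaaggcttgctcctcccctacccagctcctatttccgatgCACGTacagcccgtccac
Egln3 (chr12:54203875-54204124, minus strand): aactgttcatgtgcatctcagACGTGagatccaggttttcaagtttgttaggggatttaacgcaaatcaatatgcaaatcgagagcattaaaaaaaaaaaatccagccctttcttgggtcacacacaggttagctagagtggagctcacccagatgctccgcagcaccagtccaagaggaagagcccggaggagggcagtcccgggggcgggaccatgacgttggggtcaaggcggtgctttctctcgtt
Pgk1 holds 2 cores, 150 and 131 bases before its start. The Ldha window shown holds 5 cores, at 145, 144, 48, 47 and 34 bases, of which 2 pairs overlap as CACGTG. Another Ldha window, not shown (chr7:46846832-46847081), holds 1 core, CACGC, 59 bases before its start and no CACGTG. Adm has 2 cores at 90 and 54 bases before the start, Car9 has 1 at 18 bases and Egln3 has 1 at 229 bases. A match of these letters describes the sequence and was not tested as a binding site.

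Glycolytic enzymes were among the most abundant transcripts of the group in every line. Gapdh, the dehydrogenase that makes NADH, averaged 7368 TPM over the 21 libraries, Eno1 2758, Pkm 2350, Ldha 1677, Aldoa 1640 and Tpi1 1428 TPM, while the muscle phosphofructokinase Pfkm and the neuronal enolase Eno2 were low, at 37.0 and 2.24 TPM. Of the other hypoxia-inducible genes Ndrg1 was the most abundant at 417 TPM, followed by Vegfa at 219 and Car9 at 197 TPM. Slc2a3, a neuronal glucose transporter, and Car12, a carbonic anhydrase, stayed between 0.123 and 0.729 TPM and between 0.162 and 0.918 TPM, below the filter of 1 TPM in 3 libraries, so 33 members were tested. Summed over the 16 enzymes, the 6694c2 WT libraries held 23523, 24106, 23239 and 24616 TPM and the KOA libraries 28688, 31633, 23131 and 24719 TPM. KOB libraries of the same clone held 15701, 16251, 16099 and 14370 TPM, all below every other library of that clone. In 6419c5 the WT sums were 16563, 16122 and 19567 TPM, the KOA sums 16022, 16582 and 15450 TPM and the KOB sums 15860, 17381 and 19800 TPM. WT and KOB overlapped, and so did WT and KOA.

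**Figure D1:**
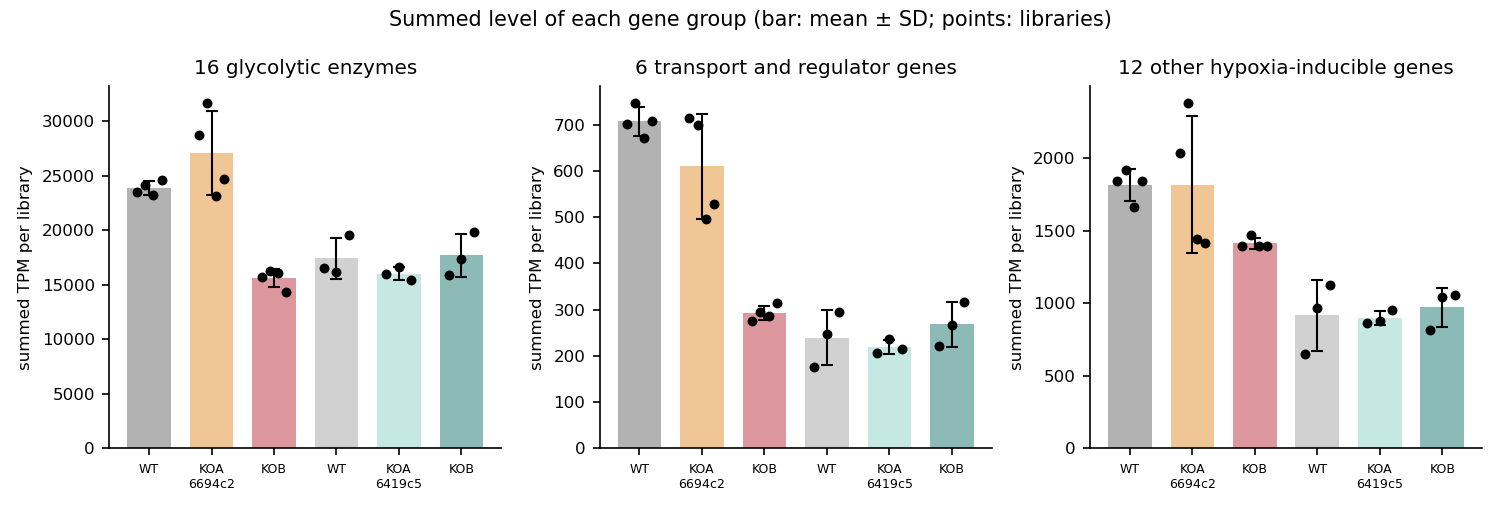
Summed TPM per library of the 16 glycolytic enzymes, the 6 transport and regulator genes and the 12 other hypoxia-inducible genes, by line on the x axis; bars are means, error bars SD and points libraries (4 per line in 6694c2, 3 in 6419c5). The 6694c2 KOB enzyme sums lie between 14370 and 16251 TPM, below all other libraries of the clone, and the 6419c5 lines overlap.

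The widest change was in the 6694c2 line labelled KOB. Of the 33 tested members 25 were lower than in WT and 1 was higher (limma, adjusted p under 0.05), against 19.4% of the 14337 tested genes called lower and 29.2% called higher, 48.6% in all. After median-of-ratios scaling the genes called were 25.4% lower and 25.8% higher, and the members stayed at 25 lower and 1 higher. The members' median log2 fold change was -0.72 and that of all tested genes 0.07. In 30 of the 33 every KOB library was below every WT library, which held for 23.2% of all tested genes, and Car9 alone was above WT in this way, as 28.9% of all tested genes were. The members called lower were 11 of 16 enzymes, 4 of 5 transport and regulator genes, 9 of 11 other hypoxia-inducible genes, and Hif1a. In bulk libraries a lower value from fewer cells of a type cannot be told apart from less RNA per cell.

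Among the enzymes the largest falls were in Pgk1, Hk2, Pfkm, Pkm and Ldha. Pgk1, the kinase of an ATP-forming step, was at 1093, 1067, 1021 and 1116 TPM in WT and at 467, 442, 452 and 492 TPM in KOB. It was lower in 4 of 4 libraries, with a log2 fold change of -1.21 ± 0.10 (SE, limma adjusted p = 3.69e-08). Hk2, the inducible hexokinase of many tumours, was at 175, 157, 149 and 160 TPM in WT and at 77.7, 71.9, 77.9 and 88.5 TPM in KOB. The ranges did not overlap, and the log2 fold change was -1.01 ± 0.14 (limma adjusted p = 9.03e-06). Ldha, which turns pyruvate into lactate, had 1912, 1979, 1946 and 2040 TPM in WT and 1102, 1160, 1141 and 1040 TPM in KOB. All KOB libraries lay under the WT libraries (log2 fold change -0.83 ± 0.08, limma adjusted p = 2.03e-07). Pkm, a pyruvate kinase gene whose transcript forms are not separated here, went from 2957 ± 113 to 1620 ± 56.7 TPM (SD, n = 4 libraries each, log2 fold change -0.87 ± 0.08). Pfkm fell by 0.96 on the log2 scale, Eno2 by 0.75, Gapdh by 0.66, Tpi1 by 0.60, Pgam1 by 0.58 and Aldoa by 0.52. Gpi1 was at 670 ± 37.5 TPM in WT and 553 ± 43.0 TPM in KOB, a call (limma adjusted p = 0.0424) that did not hold when any 1 library of these lines other than WT 3 or KOB 2 was left out. Eno1 (log2 fold change -0.23), Aldoc (-0.24), Pfkp (-0.18), Pfkl (-0.08) and Hk1 (0.12) did not pass the test.

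The transporters for glucose and lactate were lower too. Slc2a1, which encodes the glucose transporter GLUT1, had 491, 514, 458 and 488 TPM in 6694c2 WT and 194, 207, 202 and 221 TPM in KOB. All 4 KOB libraries were below WT (log2 fold change -1.24 ± 0.15, limma adjusted p = 2.58e-06). Slc16a3, the lactate exporter MCT4, had 133, 157, 147 and 147 TPM in WT and 39.4, 44.5, 40.2 and 46.8 TPM in KOB. That is 3.36-fold lower (log2 fold change -1.75 ± 0.25, limma adjusted p = 1.35e-05). Pfkfb3, which makes the allosteric activator of phosphofructokinase, fell by 0.76 on the log2 scale, and Pdk1, the kinase that keeps pyruvate out of the mitochondrial cycle, fell by 0.72. Pfkfb4 was at 2.36 ± 0.217 TPM in WT and 1.71 ± 0.128 TPM in KOB (SD, n = 4), which did not pass the test.

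The other hypoxia-inducible genes held the largest fall of the group. Adm, the vasodilator peptide adrenomedullin, was at 47.2, 43.8, 38.1 and 46.7 TPM in WT and at 9.53, 8.26, 8.13 and 11.9 TPM in KOB. It was 4.33-fold lower (log2 fold change -2.11 ± 0.27, limma adjusted p = 4.20e-06). Ankrd37, an ankyrin repeat protein of the hypoxia response, fell by 1.47 on the log2 scale, Bnip3, a receptor for removal of mitochondria, by 1.14 and Vegfa, the angiogenic growth factor, by 1.12. The collagen prolyl hydroxylases P4ha1 and P4ha2 fell by 1.03 and 0.53, Egln1 by 0.99 and the histone demethylase gene Kdm3a by 0.39. Ndrg1 was at 606 ± 48.8 TPM in WT and 393 ± 20.1 TPM in KOB, and its call (limma adjusted p = 0.0213) was lost without WT library 2 or KOB library 3. Hif1a was at 70.3, 62.8, 66.8 and 67.1 TPM in WT and at 31.5, 28.1, 32.02 and 31.7 TPM in KOB. No library of KOB reached WT (log2 fold change -1.09 ± 0.14, limma adjusted p = 2.59e-06). Egln3 differed by -0.25 ± 0.19 on the log2 scale and did not pass the test. Car9, the membrane carbonic anhydrase used as a marker of hypoxic tumour cells, went the other way. It was at 210, 258, 237 and 252 TPM in WT and at 511, 576, 520 and 438 TPM in KOB, higher in 4 of 4 libraries (log2 fold change 1.09 ± 0.29, limma adjusted p = 0.00436).

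Markers of some other cells differed between these lines as well. The 10 fibroblast and pericyte markers summed to between 268.0 and 386.3 TPM in 6694c2 WT and between 119.2 and 173.3 TPM in KOB. Of these, 6 were called lower and 1 higher in KOB, where 19.4% and 29.2% of all tested genes were called. Macrophage markers overlapped (330.3 to 1504 TPM in WT and 206.8 to 488.4 TPM in KOB), with 1 of 12 called lower, below the share of all tested genes. The erythroid markers summed to 84.5 to 125.3 TPM in WT and 251.6 to 389.8 TPM in KOB. Epithelial tumour cell markers overlapped (7398 to 8938 TPM in WT and 7341 to 8389 TPM in KOB). The part of other cells in the fall of the glycolytic and hypoxia-inducible genes was not tested. Without KOB library 4, the library of highest Mir6236, and 6419c5 WT library 3, 24 members were lower and 1 was higher.

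**Figure D2:**
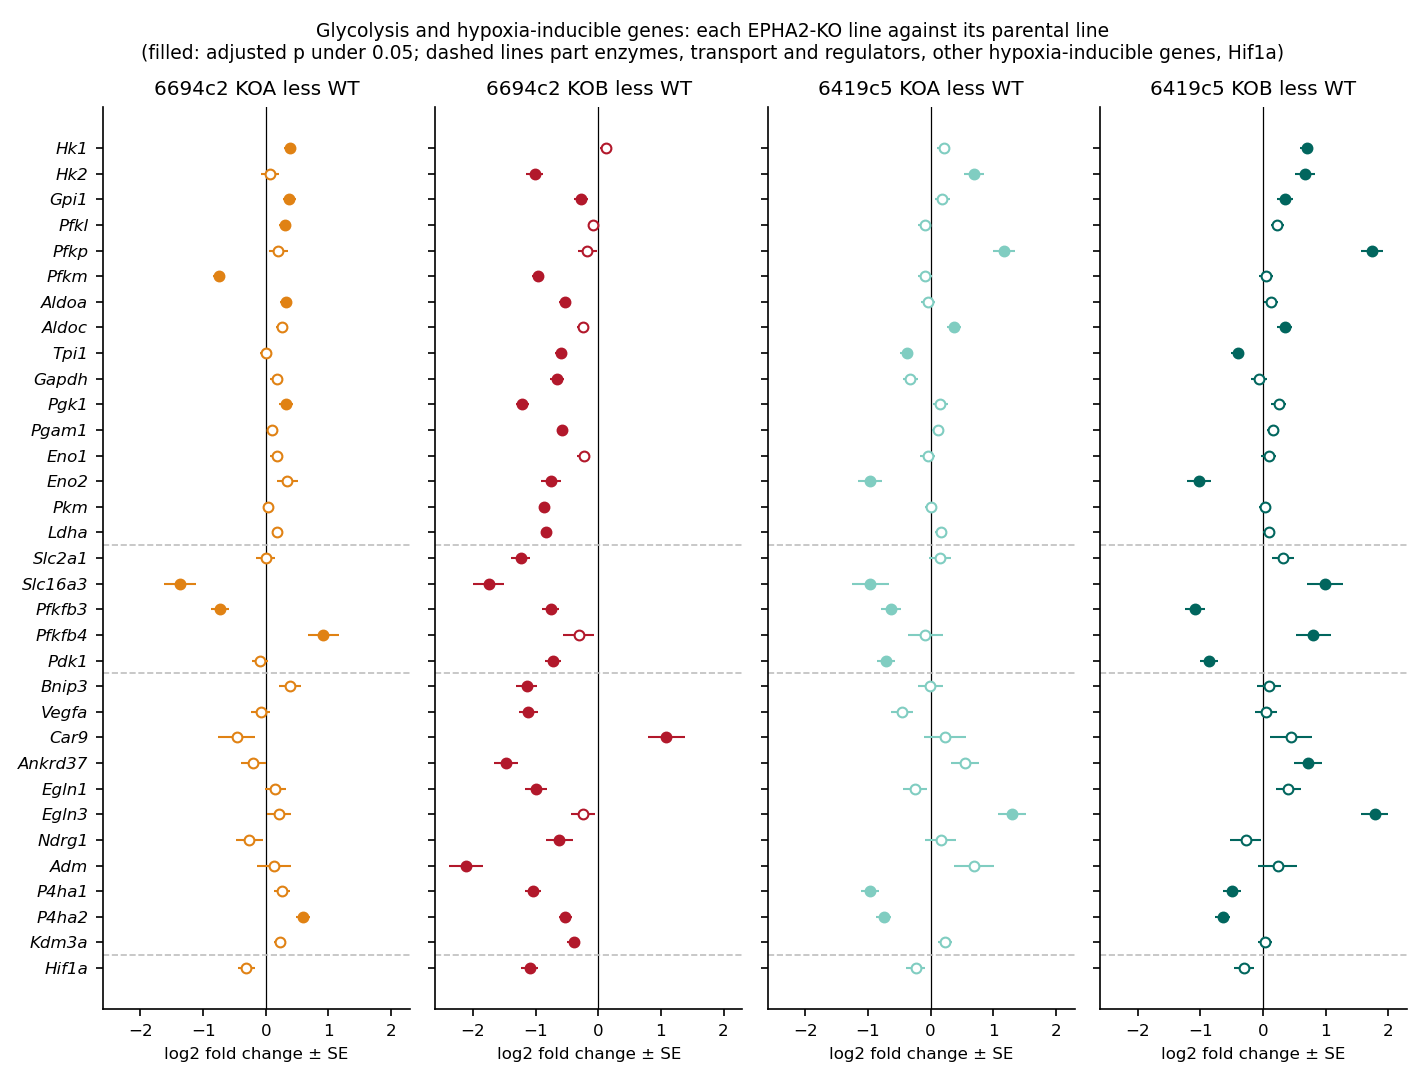
Log2 fold change (x axis, log2 of TPM plus 1, with SE) of the 33 tested members in each line labelled EPHA2-KO against the WT line of its clone; filled points have a limma adjusted p under 0.05. In 6694c2 KOB 25 points are called below 0 and Car9 alone is called above 0, while the other lines have calls on either side.

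The 6694c2 line labelled KOA did not share this fall. There 7 of the 33 tested members were higher than WT and 3 were lower, against calls of higher in 15.2% and of lower in 7.56% of all tested genes, 22.7% in all. In 10 members all KOA libraries were above WT and in 3 all were below, as for 17.5% and 9.72% of all tested genes. With median-of-ratios scaling the called genes were 12.4% higher and 14.1% lower and the members were 3 higher and 4 lower, so the split of calls depends on the scaling. The 3 lower members were Slc16a3, Pfkfb3 and Pfkm. Slc16a3 was at 62.7, 63.3, 45.8 and 53.3 TPM in KOA, below all WT libraries (log2 fold change -1.37 ± 0.25, limma adjusted p = 0.000733). Pfkfb3 was at 46.9, 43.1, 37.6 and 41.3 TPM in WT and at 30.0, 31.4, 21.2 and 19.5 TPM in KOA (log2 fold change -0.73 ± 0.14). Pfkm was at 36.0 ± 1.89 TPM in WT and 21.1 ± 2.37 TPM in KOA (SD, n = 4; log2 fold change -0.75 ± 0.10). Among the higher members P4ha2 had 70.9, 75.3, 70.3 and 82.9 TPM in WT and 116, 115, 114 and 108 TPM in KOA (log2 fold change 0.59 ± 0.10, limma adjusted p = 0.000534). Hk1 rose by 0.38 ± 0.09. The calls of Gpi1 (0.38), Aldoa (0.33), Pgk1 (0.32) and Pfkl (0.31) as higher were lost without WT library 3 and with median-of-ratios scaling, and without WT library 3 or KOA library 2 the higher members numbered 3 and 4.

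Libraries of 6694c2 KOA differed from each other in many of these genes. Adm was at 68.7, 75.9, 32.1 and 31.8 TPM in libraries 1 to 4, Car9 at 264, 320, 100 and 104 TPM and Ndrg1 at 599, 811, 354 and 373 TPM. For each of these 3 genes libraries 3 and 4 were below all WT libraries, and libraries 1 and 2 were above them, apart from Ndrg1 in library 1, which lay within the WT range. Gapdh was at 11050, 12308, 8492 and 9280 TPM in the same order and Slc2a1 at 588, 571, 397 and 423 TPM. Pfkfb4, the other isoform of the bifunctional enzyme, ran the opposite way, with 3.12, 3.21, 8.54 and 8.82 TPM against 2.16 to 2.66 TPM in WT. Its fold change of 1.89 (log2 0.92 ± 0.25, limma adjusted p = 0.0118) rests on libraries 3 and 4. The summed fibroblast and pericyte markers were 687.2, 250.2, 736.0 and 902.4 TPM in these libraries and the summed macrophage markers 310.7, 531.2, 914.3 and 1051 TPM, and their part in the spread was not tested.

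**Figure D3:**
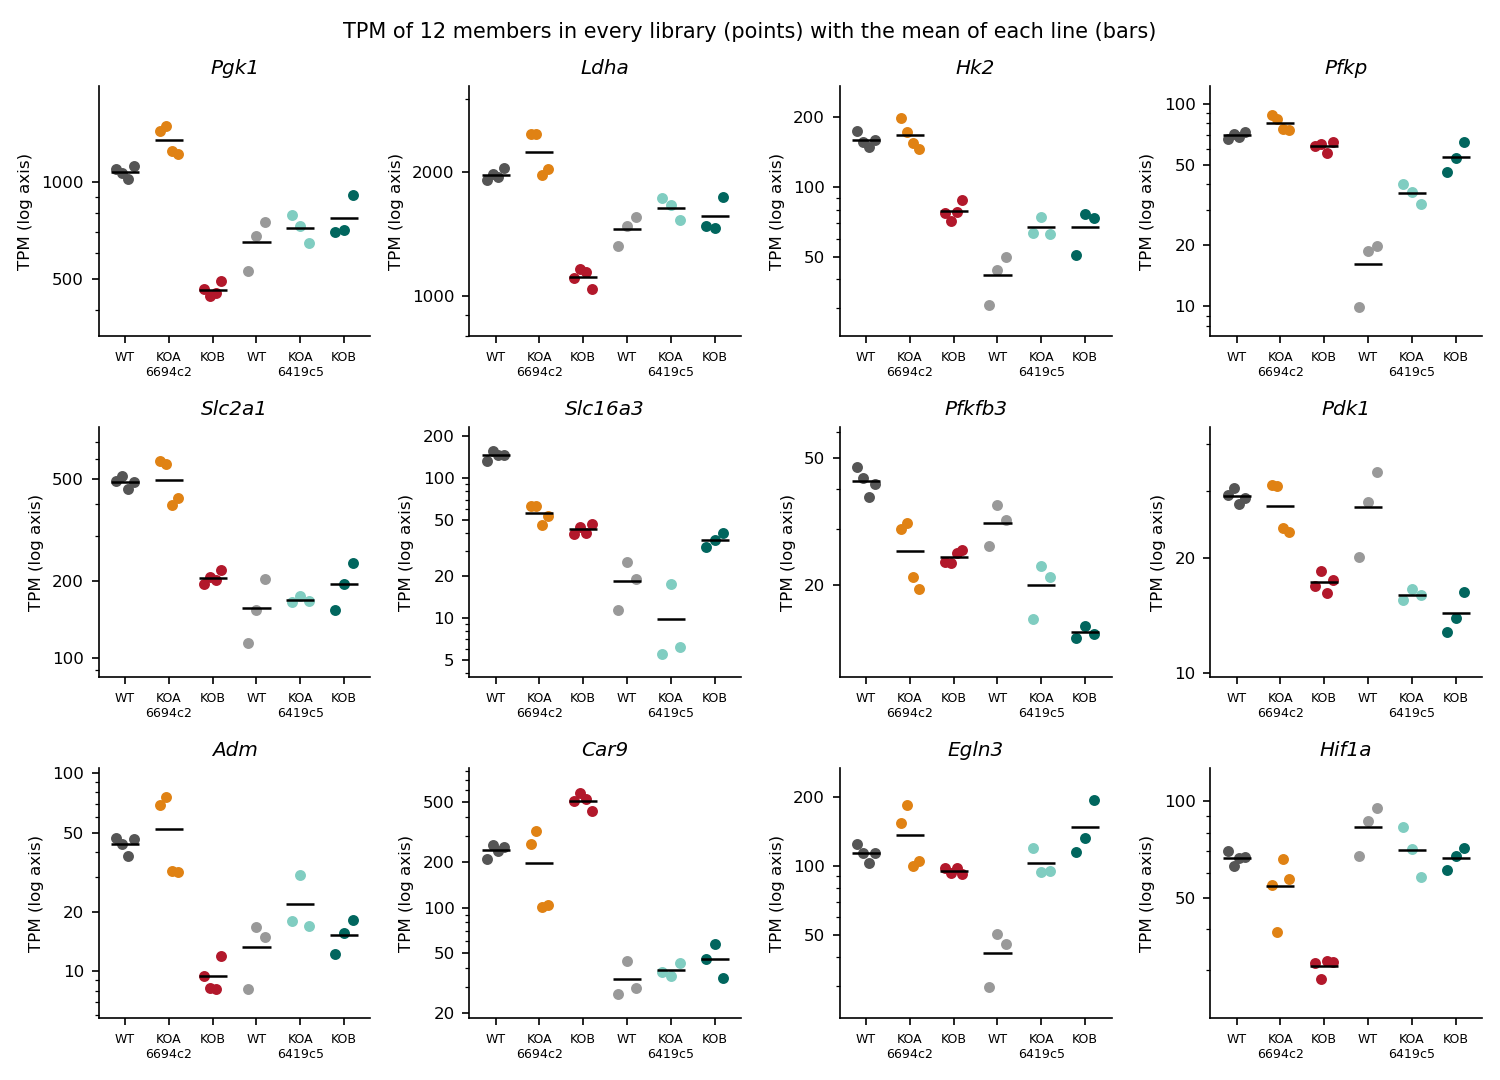
TPM of 12 members in all 21 libraries, on a log axis, by line; points are libraries and bars the mean of a line. Pgk1, Ldha, Slc2a1, Adm and Hif1a are lowest among 6694c2 lines in KOB, Car9 is highest there, and Pfkp and Egln3 are higher in both 6419c5 lines labelled KO than in WT.

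Set directly against each other, the 6694c2 lines labelled KO differed in more of the members than KOB and WT. In KOB 27 of the 33 members were lower than in KOA and Car9 alone was higher, where 22.9% of all tested genes were called lower and 23.6% higher, 46.5% in all. In 28 members all KOB libraries were below all KOA libraries and in Car9 all were above, as for 20% and 19.1% of all tested genes. The lower members took in 15 of the 16 enzymes. Adm was 4.75-fold lower in KOB (log2 fold change -2.25 ± 0.27), Pgk1 2.90-fold (-1.53 ± 0.10), Bnip3 2.88-fold (-1.52 ± 0.17) and P4ha1 2.45-fold (-1.29 ± 0.13). Car9 was 2.94-fold higher (1.56 ± 0.29, limma adjusted p = 0.000242). Slc16a3 (-0.38 ± 0.25), Pfkfb3 (-0.03 ± 0.14) and Pfkm (-0.21 ± 0.10), the 3 genes lower than WT in KOA, did not pass the test between the KO lines.

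Averaged over KOA and KOB, 18 members were lower than WT in 6694c2 and Hk1 alone was higher, where 13.5% of all tested genes were called lower and 23.9% higher, 37.4% in all (20.5% lower and 19.5% higher after median-of-ratios scaling). For most of the 18 the average joins a fall in KOB to a value near or above WT in KOA. The 3 members in which all 8 KO libraries were below all WT libraries were Slc16a3, Pfkfb3 and Pfkm, and 4.85% of all tested genes did so. No member had all 8 above WT, as 9.4% of all tested genes did. The log2 fold changes of Slc16a3, Pfkfb3 and Pfkm were -1.56 ± 0.22, -0.75 ± 0.12 and -0.85 ± 0.08. Fitted in limma with a random effect per line, Pfkm alone stayed called lower (adjusted p = 0.046), and 4 members were lower at an unadjusted p under 0.05. Shares of all tested genes called under that setting are not given here, and with few lines its p-values may understate the spread between lines. Hk1 lost its call under that setting, under median-of-ratios scaling and without WT library 3. Of the 18, Gapdh, just under the threshold, also lost its call without any 1 library of 6694c2 other than KOA libraries 1 and 2, and Egln1 without WT library 1 or 2, KOA library 4 or KOB library 2.

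In 6419c5 members were called in both directions, in numbers near or below the shares of all tested genes. Over both lines labelled KO, 6 of the 33 were higher than WT and 6 lower, where 26.5% of all tested genes were called higher and 15% were called lower, 41.4% in all (22.6% higher and 21.4% lower after median-of-ratios scaling). In 5 members all 6 libraries labelled KO were above WT and in 5 all were below, as for 17.8% and 9.99% of all tested genes. The members' median log2 fold change was 0.07 and that of all tested genes 0.08. The higher members were Hk1, Hk2, Pfkp and Aldoc among the enzymes, and Ankrd37 and Egln3. The lower members were Tpi1 and Eno2 among the enzymes, Pfkfb3 and Pdk1 among the regulators, and the collagen hydroxylases P4ha1 and P4ha2. The abundant enzymes Gapdh, Eno1, Pkm, Aldoa and Ldha differed by -0.19 to 0.14 on the log2 scale and did not pass the test. Epithelial tumour cell markers summed to 5754 to 7648 TPM in WT and 12349 to 16403 TPM in these lines, and 5 of 8 were called higher and 1 lower. Fibroblast and pericyte markers summed to 1158 to 1994 TPM in WT, 675.2 to 851.4 TPM in KOA and 1655 to 2442 TPM in KOB. Macrophage markers summed to 991.2 to 2602 TPM in WT, to 387.6, 4362 and 332.3 TPM in KOA, where library 2 stood apart, and to 446.0 to 594.0 TPM in KOB, below all WT libraries. In KOB 5 of 12 were called lower and 1 higher, where 14.7% and 28.5% of all tested genes were called. The part of these differences in the changes of the members was not tested.

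Pfkp, the platelet form of phosphofructokinase, was at 9.91, 18.8 and 19.8 TPM in 6419c5 WT, at 40.3, 36.8 and 31.99 TPM in KOA and at 45.9, 53.7 and 64.7 TPM in KOB. All 6 libraries labelled KO were above WT, 2.75-fold over both lines (log2 fold change 1.46 ± 0.15, limma adjusted p = 6.09e-07). Egln3, a prolyl hydroxylase of HIF and itself a target of it, was at 29.8, 50.5 and 45.6 TPM in WT, at 120, 93.9 and 95.1 TPM in KOA and at 114, 133 and 194 TPM in KOB. It was 2.91-fold higher, again in 6 of 6 libraries (log2 fold change 1.54 ± 0.19, limma adjusted p = 4.69e-06). Under a random effect per line Pfkp and Egln3 were the 2 members that stayed called higher in this clone (limma adjusted p = 0.016 and 0.038). None stayed called lower, with 4 at an unadjusted p under 0.05. Shares of all tested genes under that fit are not given here. Hk2 was at 31.2, 43.9 and 50.2 TPM in WT, at 63.3, 74.7 and 63.0 TPM in KOA and at 51.0, 76.9 and 73.7 TPM in KOB (log2 fold change 0.68 ± 0.14). Ankrd37 averaged 20.4 ± 3.53 TPM in WT against 30.2 ± 3.45 for KOA and 35.3 ± 12.3 for KOB (SD, n = 3), and its call (0.64 ± 0.19) was lost without WT library 1. Aldoc rose by 0.36 ± 0.10, a call lost with median-of-ratios scaling.

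The members called lower over both 6419c5 lines labelled KO were regulators, collagen prolyl hydroxylases and the enzymes Eno2 and Tpi1. Pfkfb3 was at 26.5, 35.5 and 32.01 TPM in WT, at 15.7, 22.9 and 21.2 TPM in KOA and at 13.7, 14.9 and 14.1 TPM in KOB. None of the 6 libraries labelled KO reached WT (log2 fold change -0.86 ± 0.14, limma adjusted p = 8.47e-05). Pfkfb3 was thus called lower in each of the 4 lines labelled KO when set against the WT of its clone, with log2 fold changes of -0.73 and -0.76 in 6694c2 and -0.63 and -1.08 in 6419c5, and the lines of a clone share their WT libraries. Pdk1 was at 20.1, 28.1 and 33.7 TPM in WT, at 15.5, 16.6 and 16.02 TPM in KOA and at 12.8, 13.9 and 16.3 TPM in KOB. It was 1.72-fold lower over both lines (log2 fold change -0.78 ± 0.12, limma adjusted p = 6.62e-05). P4ha2 averaged 65.7 ± 17.9 TPM in WT against 37.9 ± 1.41 for KOA and 40.8 ± 2.91 for KOB (SD, n = 3; log2 fold change -0.69 ± 0.10). P4ha1 fell by 0.73 ± 0.13 and overlapped WT in 1 of 6 libraries. Eno2, at 1.15 to 1.80 TPM in the 6 libraries and 3.01 to 5.01 TPM in WT, fell by 0.99 ± 0.16, and Tpi1, the triose isomerase, fell by 0.39 ± 0.09 with all 6 libraries below WT. Hif1a was at 67.7, 86.9 and 95.6 TPM in WT, at 83.0, 71.0 and 58.0 TPM in KOA and at 61.3, 67.6 and 71.4 TPM in KOB, and did not pass the test (-0.27 ± 0.14, limma adjusted p = 0.118).

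By line, 4 members were higher in 6419c5 KOA (Hk2, Pfkp, Aldoc and Egln3) and 7 lower, where 19.1% and 12.7% of all tested genes were called, 31.8% in all. In KOB 9 were higher and 6 lower, where 28.5% and 14.7% were called, 43.3% in all (23.3% and 22.6% after median-of-ratios scaling). The KOB counts were thus near the shares of all tested genes. Beyond the members higher in KOA, those higher in KOB were Hk1, Gpi1, Slc16a3, Pfkfb4 and Ankrd37, and without WT library 1 or KOB library 3 the higher members numbered 5. All KOA libraries were above WT in 6 members and below in 7 (23.9% and 16.2% of all tested genes), and all KOB libraries in 9 and 5 (32.1% and 18.4%). The lines labelled KO differed most in Slc16a3. It was at 11.4, 25.0 and 18.8 TPM in WT, at 5.52, 17.5 and 6.19 TPM in KOA and at 32.1, 36.0 and 40.4 TPM in KOB. KOB was 3.88-fold above KOA in 3 of 3 libraries (log2 fold change 1.96 ± 0.29, limma adjusted p = 0.000158). Against WT the call of Slc16a3 as lower in KOA (-0.96 ± 0.29) did not hold without KOA library 1, KOA library 3 or WT library 2, and its call as higher in KOB (0.997 ± 0.29) was lost without WT library 1. Hk1 was at 98.3, 112 and 128 TPM in WT, at 123, 128 and 140 TPM in KOA and at 175, 189 and 184 TPM in KOB, which was above KOA by 0.49 ± 0.10 (limma adjusted p = 0.00254). Between these lines 7 members were higher in KOB, where 12.7% of all tested genes were called higher and 17.4% in all, and 4 were after median-of-ratios scaling. All KOB libraries were above KOA in 9 members and below in 3 (23.2% and 13.7% of all tested genes). None was called lower by limma, where 4.76% of all tested genes were, and 1 was lower at an unadjusted p under 0.05. For that unadjusted count the share of all tested genes is not given here. Of the 7, Slc16a3 and Hk1 were called without any 1 of the libraries of this clone, and the others, Pfkp, Pfkl, Pfkfb4, Egln1 and P4ha1, each lost the call without KOA library 3, among others. Without KOA library 3, KOB library 2 or KOB library 3 the higher members numbered 2.

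The difference of the KO effects, 6694c2 less 6419c5, was tested in the same fit, and 14 members differed, 12 of them more negative in 6694c2 and 2 more positive, where 15.6% and 13% of all tested genes were called, 28.6% in all. The largest were Slc16a3 (-1.58 ± 0.33), Egln3 (-1.56 ± 0.25), Ankrd37 (-1.47 ± 0.26), Pfkp (-1.45 ± 0.20) and Adm (-1.45 ± 0.36). Each had a limma adjusted p of at most 0.0058. Pfkp and Egln3 differed between clones through the rise in 6419c5, with effects of 0.01 ± 0.13 and -0.02 ± 0.17 in 6694c2. For Pgk1 (-0.65), Ldha (-0.46), Pkm (-0.44) and Pgam1 (-0.37) the 6694c2 side rests on KOB, since KOA was at or above WT in these genes. P4ha2 (0.73 ± 0.14) and Eno2 (0.79 ± 0.22) were the 2 more positive members, and Eno2 lost its call without 6694c2 KOB library 4 and 6419c5 WT library 3. Under a random effect per line none of the 14 stayed called in limma, and 5 were more negative at an unadjusted p under 0.05. Shares of all tested genes under that fit are not given here.

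Isoenzymes of a step did not keep their proportions. Hk2 made up 58.3% ± 1.39 of hexokinase TPM (Hk1 plus Hk2) in 6694c2 WT, against 52.9% ± 1.82 for KOA and 38.8% ± 2.98 for KOB (SD, n = 4). The KOB range, 35.8% to 42.9%, did not reach the other lines of the clone. In 6419c5 WT had 26.8% ± 2.35 of Hk2, KOA 34.0% ± 2.92 and KOB 26.7% ± 3.54 (SD, n = 3). Among the phosphofructokinases the share of Pfkm was 13.0% ± 0.180 in 6694c2 WT, against 6.79% ± 1.46 for KOA and 7.48% ± 0.757 for KOB. Pfkp made up 8.29% ± 2.23 of that step in 6419c5 WT, against 18.1% ± 2.62 for KOA and 21.5% ± 2.71 for KOB, and stayed between 23.2% and 27.2% in all 12 libraries of 6694c2. Both clones thus read most of this step from the liver form Pfkl. Egln3 was 38.7% of the Egln1 plus Egln3 signal in 6419c5 WT, and 65.2% and 62.4% in KOA and KOB. Aldoc, Eno2 and Slc2a3 were minor forms in every library, at most 2.18%, 0.180% and 0.458% of their steps.

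**Figure D4:**
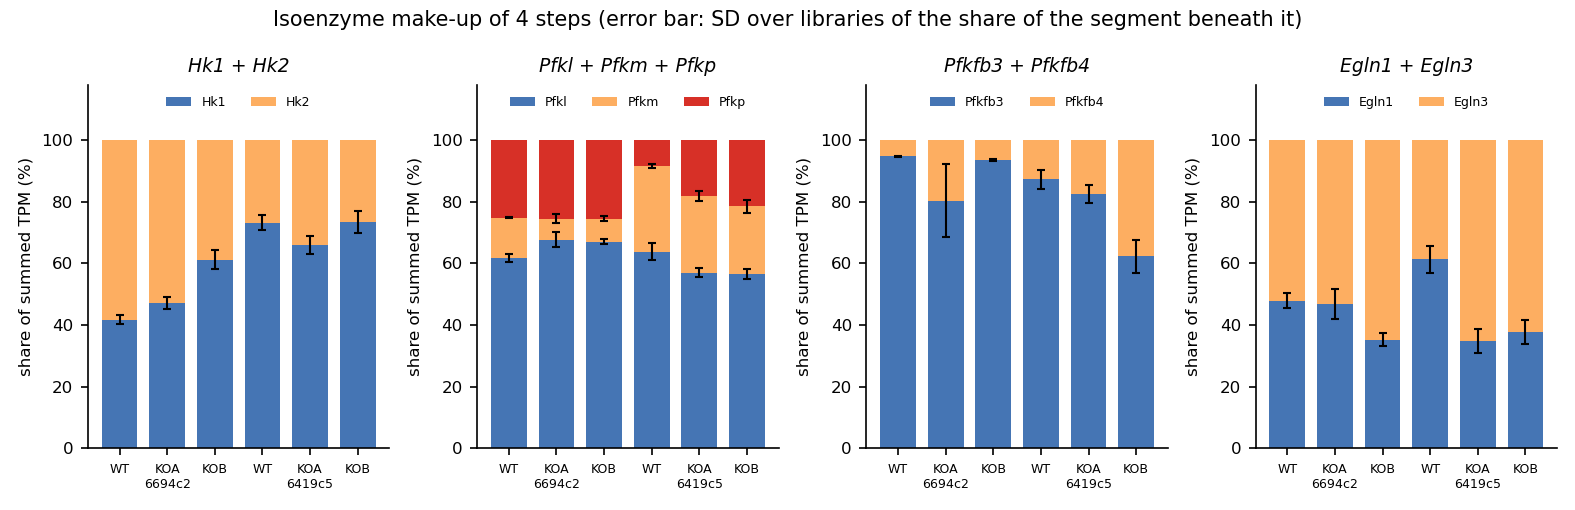
Share (% of summed TPM, y axis) of each isoenzyme in 4 steps, by line; segments are means over libraries and error bars the SD of the share beneath. The Hk2 share falls from 58.3% in 6694c2 WT to 38.8% in KOB, and the Pfkp share rises from 8.29% in 6419c5 WT to 18.1% and 21.5% in the lines labelled KO.

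The parental lines differed in these genes before any KO line was considered. In 6694c2 WT 23 of the 33 tested members were higher than in 6419c5 WT and 3 were lower, where 21.5% of all tested genes were called higher and 32% were called lower, 53.5% in all (27.6% higher and 27.7% lower after median-of-ratios scaling). No library of the lines overlapped in 23 higher and 3 lower members, as in 23% and 33.1% of all tested genes. The members' median log2 difference was 0.51 and that of all tested genes -0.11. The higher members were 11 of 16 enzymes, 3 of 5 transport and regulator genes and 9 of 11 other hypoxia-inducible genes. Slc16a3 was 7.90-fold higher (log2 difference 2.98 ± 0.27), Car9 7.12-fold (2.83 ± 0.31), Pfkp 4.30-fold (2.103 ± 0.16), Hk2 3.83-fold (1.94 ± 0.15), Ankrd37 3.74-fold (1.90 ± 0.21) and Slc2a1 3.17-fold (1.67 ± 0.17). All 4 libraries of 6694c2 WT were above all 3 of 6419c5 WT for each of these 6 genes. Pfkm was lower in 6694c2 WT (-0.56 ± 0.11, limma adjusted p = 0.000231), as were Pfkfb4 and Eno2, whose calls were lost without 6419c5 WT library 3. The calls of Bnip3 and Pfkfb3 as higher were lost without 6419c5 WT library 1, that of Aldoc without its library 2 and that of Gapdh under quantile normalization. Hif1a itself did not pass the test (-0.30 ± 0.15, limma adjusted p = 0.0875), nor did Hk1, Tpi1, Eno1, Pdk1, P4ha1 and P4ha2. Fibroblast and pericyte markers summed to 268.0 to 386.3 TPM in 6694c2 WT and 1158 to 1994 TPM in 6419c5 WT, and macrophage markers to 330.3 to 1504 TPM and 991.2 to 2602 TPM, and their part in the difference was not tested.

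**Figure D5:**
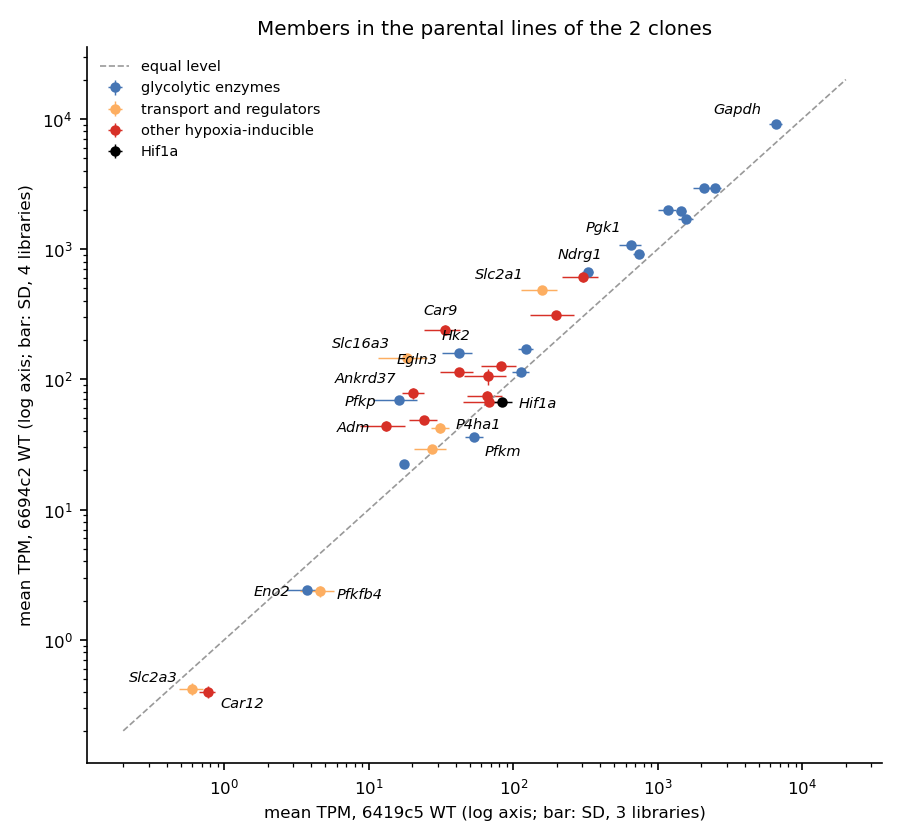
Mean TPM of the 35 members in 6694c2 WT (y axis, 4 libraries) and 6419c5 WT (x axis, 3 libraries), both on log axes with SD; the dashed line marks equal levels. Most points lie above the line, with Slc16a3 and Car9 farthest from it at 7.90-fold and 7.12-fold.

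Neighbouring pathways were read from lists of genes, beside the shares of all tested genes called, which were 29.2% higher and 19.4% lower in 6694c2 KOB, 15.2% and 7.56% in 6694c2 KOA, and 26.5% and 15% over the 6419c5 lines labelled KO (after median-of-ratios scaling 25.8% and 25.4%, 12.4% and 14.1%, and 22.6% and 21.4%). Of 37 tested further hypoxia-inducible genes, 25 were lower and 2 higher in 6694c2 KOB than in WT (median log2 fold change -0.56), and 6 were higher and 6 lower in KOA, where the count of higher genes is near the share of all tested genes. Angptl4, a regulator of lipoprotein lipase, averaged 85.9, 92.6 and 21.4 TPM in the 6694c2 lines WT, KOA and KOB, and Pgf, the placental growth factor, 27.5, 15.1 and 1.46 TPM. Ddit4, an inhibitor of mTORC1 signalling, averaged 420.8, 684.8 and 232.3 TPM, higher in KOA (0.70 ± 0.08) and lower in KOB (-0.85 ± 0.08). Among 16 other genes of HIF regulation 7 were lower and 3 higher in KOB, and 5 were higher and none lower over the 6419c5 lines labelled KO, the latter near the share of all tested genes. Cited2, which competes with HIF for its coactivators, fell by 2.16 ± 0.14 on the log2 scale in KOB, from 103.0 to 22.3 TPM. Epas1, which encodes HIF-2 alpha, rose in 6419c5 from 4.53 TPM to 9.07 TPM in KOA and 10.6 TPM in KOB (0.96 ± 0.13 over both lines).

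Of the 16 genes of the tricarboxylic acid cycle 10 were higher in 6694c2 KOB than in WT and 1 was lower (median log2 fold change 0.30), where 29.2% of all tested genes were called higher and 19.4% lower. Their summed level was 1548 to 1634 TPM in WT and 1951, 1996, 1948 and 1566 TPM in KOB, so that KOB library 4, the library of highest Mir6236, lay within the WT range. Sdhb, a subunit of succinate dehydrogenase, averaged 94.8 TPM in WT and 153.4 TPM in KOB (0.69 ± 0.07), and Suclg2, of succinyl-CoA ligase, 35.3 and 61.0 TPM. Of the 12 genes of pyruvate oxidation 3 were higher and 1 lower, no more than the shares of all tested genes. Among them were Mpc1, a subunit of the mitochondrial pyruvate carrier, at 54.0 TPM in WT and 81.9 in KOB and Pdk2 at 6.61 and 15.8 TPM. Mpc1 was also higher in the 6419c5 lines labelled KO, at a mean of 67.0 TPM for KOA and 66.2 for KOB against 29.4 TPM for WT (1.17 ± 0.09). In that clone Pdk3 fell by 1.74 ± 0.16, from 14.1 TPM to 5.80 and 2.08 TPM. The pentose phosphate pathway, which branches from glycolysis, had 6 of 7 genes higher in the 6419c5 lines labelled KO, among them Rpia (0.69 ± 0.09) and Tkt (0.48 ± 0.08), where 26.5% of all tested genes were called higher. In 6694c2 KOB 1 of the 7 was higher and none lower, where 29.2% and 19.4% of all tested genes were called. Of 14 other tested isoenzymes of glycolysis 6 were higher and 4 lower in 6694c2 KOB, against the same 29.2% and 19.4%. Pklr, the liver and red cell pyruvate kinase, rose by 1.14 ± 0.13 there and by 1.32 ± 0.13 over the 6419c5 lines, and Eno3, the muscle enolase, fell by 1.48 ± 0.18 and 1.57 ± 0.18.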

How the data were processed

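The authors deposited gene-level TPM, made with Salmon on mm10 per the submitters' processing notes; the Salmon version and annotation are not given in the sources used here. RNA came from sorted tumour cells and was sequenced on an Illumina NextSeq, per the labels' protocols. Depth is unknown, so precision rests on the spread between libraries. The table letters the KO lines A and B where the titles number them, so KOA and KOB follow the table. Values were analysed as log2(TPM + 1), and fold changes are on that scale, which understates changes of low genes. A gene was tested if 3 or more libraries reached 1 TPM (14337 genes). A limma 3.58.1 model in R 4.3.3 with 1 mean per line (eBayes with trend, two-sided, Benjamini-Hochberg over all tested genes, called under 0.05) gave every contrast and was tested on simulated data. The simulation held no spread between the lines of a clone beyond the planted changes, so it does not cover that spread. Named are all members, Epha2 and up to 4 genes of each other list with the smallest p in a KO contrast. Members and lists were chosen with earlier results of these data known. Alternatives were another pseudocount, other filters and scalings, array weights, a random effect per line, a block on the library number and leaving out each library. Tables and figures used Python 3.11.15.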

Additional observations from a re-analysis of the deposited data

Results flagged for a closer look

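Of the 105 sets of libraries formed by a 6694c2 line and a member, 6 held a library whose gap to the nearest other, divided by the range, was above Dixon's 95% critical value for 4 libraries; chance alone marks about 1 in 20 such sets. In KOB, library 4 stood low for Pfkm at 15.13 TPM (others 18.8 to 19.4 TPM) and for Eno1 at 2194 TPM (others 2598 to 2662 TPM), and library 2 stood low for Hif1a at 28.13 TPM (others 31.5 to 32.02 TPM). In WT, library 4 stood high for Gapdh at 9407 TPM (others 8875 to 8958 TPM), and library 3 stood low for Pkm at 2788 TPM (others 3004 to 3025 TPM). In KOA, library 3 stood high for Car12 at 0.9178 TPM (others 0.295 to 0.397 TPM), a level under the filter.

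The KO effect, averaged over KOA and KOB, differed between clones in 14 members by the interaction contrast of the limma fit. As log2 differences, 6694c2 less 6419c5, these were -1.58 for Slc16a3, -1.56 for Egln3, -1.47 for Ankrd37, -1.45 for Pfkp, -1.45 for Adm, -1.16 for Hk2, -0.85 for Slc2a1, -0.83 for Pfkm, -0.65 for Pgk1, -0.46 for Ldha, -0.44 for Pkm, -0.37 for Pgam1, 0.73 for P4ha2 and 0.79 for Eno2.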

How the results depend on the processing

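No source says that libraries of 1 number belong together. Deviations from the line means of same-numbered libraries correlated at -0.119 to 0.161 in 6694c2 (over 0.1 in 2 of 12 pairs) and -0.147 to 0.173 in 6419c5 (4 of 9). In 6694c2 0 of 12 libraries, and in 6419c5 2 of 9, correlated best with their own number in each other line. Such weak correlations cannot settle whether the numbers pair the libraries, and the pairing is unknown. The library number as a replicate block, chosen after seeing the data, gave 1 lower member in place of 0 between the 6419c5 KO lines, 26 lower in place of 25 in 6694c2 KOB, and moved no other count by over 1.5 times. With a random effect per line, members called lower went from 18 to 1 and higher from 1 to 0 in the 6694c2 KO effect, from 6 to 0 and 6 to 2 in 6419c5, and from 12 to 0 and 2 to 0 in their difference. Shares of all tested genes are not given beside any count of called members in this section. Whether a count moved with the calls of all genes cannot be read from it. Median-of-ratios scaling gave 0 higher in the 6694c2 effect, 3 in 6694c2 KOA and 4 between the 6419c5 KO lines, where quantile normalization gave 3. Array weights gave 2 higher in the 6694c2 effect, 4 in the difference and 2 in 6694c2 KOB, and 6 lower in KOA. The filter of 5 TPM left 1 higher in the difference. Without the 2 libraries of most Mir6236, an alternative chosen after seeing the data, 1 was higher in the difference and 1 lower between the parental lines, as under quantile normalization. Leaving out each library gave, for members called higher, 0 to 1 (6694c2 effect), 2 to 4 (difference), 3 to 9 (6694c2 KOA), 5 to 13 (6419c5 KOB against WT) and 2 to 8 (6419c5 KOB against KOA), and, for members called lower, 0 to 1 (6419c5 KOB against KOA) and 1 to 4 (parental lines). The 25 lower members of 6694c2 KOB became 23 to 27. With ACGTG alone, 19 genes in place of 29 held a core. Where a setting itself does not show it (fewer libraries or genes), the cause was not tested. The deposited values give no depth, which limits what can be said of low members such as Eno2 and Pfkfb4.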
